A study of Homo sapiens with 4 samples.

Results

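NKL and PRD class homeobox genes encode transcription factors that lay out the body plan, and 48 of them were examined in K562 cells that express the JAZF1-SUZ12 fusion and in mock cells. The members were taken by gene symbol from the table of 35606 genes, in which each of the 48 symbols had 1 row; 32 belong to the NKL subclass and 16 to the PRD class. K562 is an established leukaemia cell line that resembles red cell precursors. The fusion, known from a uterine sarcoma, links JAZF1 to SUZ12, which is part of the core of Polycomb repressive complex 2. Poly(A)-selected RNA was sequenced from 2 libraries labelled JAZF1-SUZ12 and 2 labelled mock, numbered 1 and 2 in each group. Both groups are the same cell line, and how the fusion was introduced, or what the mock cells received, is not given in the sources used here. Nothing says that libraries of a group came from separate cultures, so p-values measure only the spread between these libraries, which may be technical.

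A homeobox encodes the homeodomain, a DNA-binding fold of helices that contacts a short core sequence, often TAAT. Genes of the NKL subclass, such as the DLX, EMX, MSX, NKX, TLX and EN genes, and of the PRD class, such as the ALX, OTX, PITX and PRRX genes, act in brain, limb, face, heart and gut patterning. Most are silent in blood cells, where Polycomb complexes are known to mark their CpG-rich promoters with trimethylated lysine 27 of histone H3; HHEX and HLX are exceptions with known roles in blood cell development, and TLX1 and TLX3 are activated by translocations in T cell leukaemia.

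The libraries held between 17260936 and 24423028 estimated counts. As a check of the labels, JAZF1 had 574 and 731 counts with the fusion against 12 and 27 in mock, and SUZ12 had 4754 and 6582 against 2781 and 2798. These counts do not separate the fusion from the endogenous genes. The 10 erythroid markers summed to 13303 and 13168 CPM (counts per 1000000 counts of the library) in JAZF1-SUZ12 and to 11514 and 11157 CPM in mock libraries, whereas the source label names the uterus. Of the 10, 6 rose and none fell, among them SLC4A1 and HBZ (2.26-fold and 1.81-fold, edgeR, adjusted p = 1.3e-05 and 2.47e-09). Of all genes tested, 13.3% rose and 11.4% fell. Among 11 stromal markers, LUM was at 0 in every library and COL3A1 did not exceed 3 counts, but the summed level of the list was 36.2 and 37.3 CPM in JAZF1-SUZ12 and 18.2 and 16.4 CPM in mock libraries. Of the 6 stromal markers tested, COL1A1 rose (edgeR, adjusted p = 8.75e-08). At 21.4 and 21.3 CPM against 5.18 and 6.39 CPM in mock, COL1A1 made up most of the change in the sum. PDGFRB, with 41 and 32 counts against 19 and 4, was also called higher (edgeR, adjusted p = 0.0457), but not with DESeq2 (0.0893) or in the authors' deposited table (0.488). COL1A2, COL6A3, DCN and PGR were tested and not called. Among untested markers with few counts, the groups did not overlap in PDGFRA and THY1, which were lower, and in ESR1, which was higher. The part that erythroid state or stromal cells play in any value below was not tested. Of 7 neural markers, none of the 3 tested was called, and 4, including SOX2 and ELAVL4, had at most 3 counts in every library. In these bulk samples, fewer cells that transcribe a gene and less RNA per cell cannot be told apart.

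The 250 bases before the RefSeq start (GRCh38.p14) were listed for 35 of the 48 members, in 40 windows. EMX1, ALX4, DLX4 and LBX1 are among the members without an entry. Of the 40 windows, 31 (77.5%) had a GC content of at least 50% and a ratio of observed to expected CpG of at least 0.6, against 45% of 35114 windows of all genes. The sequence TAAT, searched on both strands, was in 19 of the 40 windows (47.5%), against 47.4% of all windows. These shares do not allow for base composition, or for whether a gene codes for protein. The members' windows had a median GC content of 65.6% against 58% over all windows. Windows of 3 members are shown to let their CpG density be seen. EN2 and PITX3 are the called members whose window overlaps no exon of their own gene, and DLX2, of which this also holds, is the neighbour of DLX1, which was called lower. The 3 were chosen after their values were seen and do not stand for all members, whose windows held a median of 18 CpG. CpG dinucleotides are in capitals. The EN2 window (chr7:155457879-155458128, plus strand) holds 45 CpG, the most of the 40 windows, and is intergenic in GENCODE 29. The PITX3 window (chr10:102241513-102241762, minus strand) holds 23 CpG and is also intergenic. The DLX2 window (chr2:172102901-172103150, minus strand) holds 25 CpG and overlaps an exon of the divergent transcript DLX2-DT. The median over all windows was 11 CpG. The gene-level counts do not show which start was used in these cells.
EN2: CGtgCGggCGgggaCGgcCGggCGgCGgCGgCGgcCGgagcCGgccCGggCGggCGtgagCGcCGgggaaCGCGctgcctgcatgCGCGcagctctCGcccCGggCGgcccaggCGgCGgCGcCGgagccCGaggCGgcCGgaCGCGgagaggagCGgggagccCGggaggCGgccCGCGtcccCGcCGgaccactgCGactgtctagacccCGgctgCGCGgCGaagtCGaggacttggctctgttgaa
PITX3: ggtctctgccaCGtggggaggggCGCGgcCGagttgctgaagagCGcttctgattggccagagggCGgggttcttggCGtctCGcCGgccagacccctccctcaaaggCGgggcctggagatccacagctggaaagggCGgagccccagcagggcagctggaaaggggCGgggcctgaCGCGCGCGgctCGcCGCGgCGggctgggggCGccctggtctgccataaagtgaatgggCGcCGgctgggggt
DLX2: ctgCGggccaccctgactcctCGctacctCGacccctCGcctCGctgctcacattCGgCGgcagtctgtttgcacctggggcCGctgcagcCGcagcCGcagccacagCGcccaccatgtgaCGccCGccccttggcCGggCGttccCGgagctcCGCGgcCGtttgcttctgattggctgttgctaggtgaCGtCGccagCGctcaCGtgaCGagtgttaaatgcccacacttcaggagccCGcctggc

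Mock K562 cells already held RNA of many members, at levels that spanned a wide range. PITX1, a factor of hindlimb identity, had 124 to 125 CPM in the mock libraries, and HHEX had 81.9 and 84.5 CPM. Together PITX1 and HHEX took 72.9% and 72.3% of the members' counts in mock libraries and 67.9% and 64.9% in JAZF1-SUZ12 libraries. Per kilobase of the longest GENCODE transcript, the mean mock levels were 51.9 CPM per kb for PITX1 and 48.2 for HHEX, then 7.42 for DLX1, 4.21 for MSX1, 3.97 for LBX2 and 3.63 for SHOX2. EN1, DLX2, OTX1 and DLX4 followed at 2.41, 2.40, 1.89 and 1.51 CPM per kb, and the remaining members tested were at 0.792 CPM per kb or less. The transcript used in these cells is not known, so neighbours in this order, such as MSX1 and LBX2, cannot be ranked. The members' summed level was 283 and 277 CPM in JAZF1-SUZ12 libraries and 284 and 289 CPM in mock libraries. The changes described next therefore left the summed level of the 48 genes within a range of 277 to 289 CPM.

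**Figure D1:**
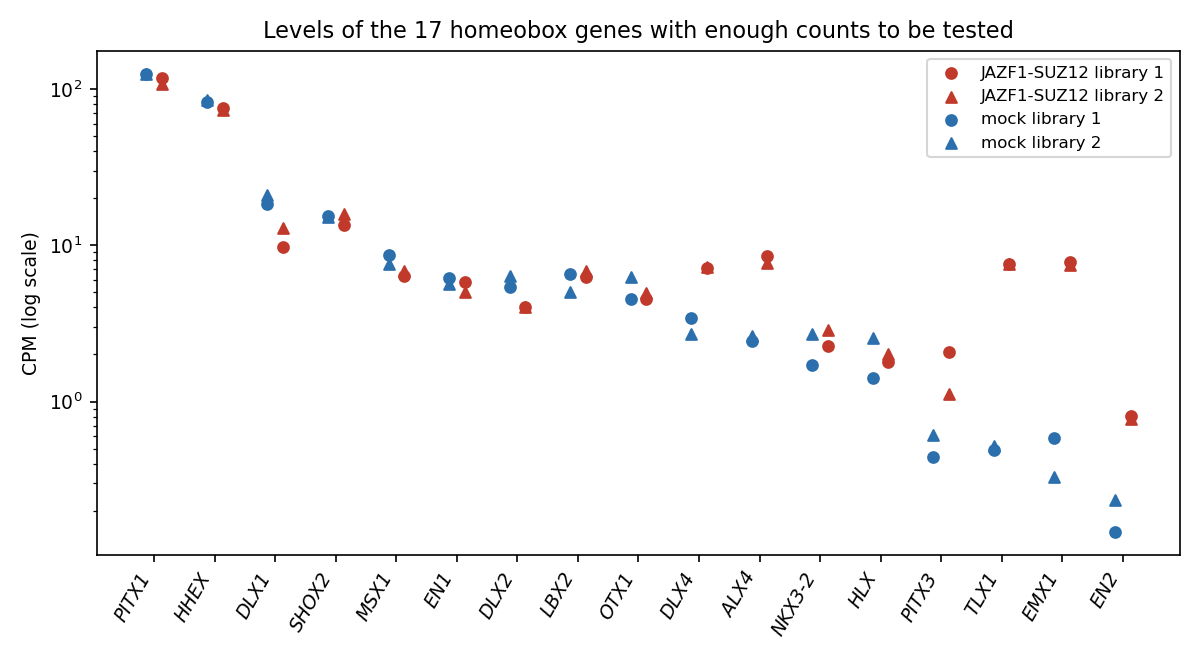
CPM on a log scale in each of the 4 libraries for the 17 homeobox genes tested, ordered by mean mock level; red points are JAZF1-SUZ12 and blue points mock libraries, with circles for library 1 and triangles for library 2. EMX1 and TLX1 lie at 0.329 to 0.587 CPM in mock and at 7.49 to 7.76 CPM in JAZF1-SUZ12 libraries, whereas PITX1 and HHEX lie close together in all 4.

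In JAZF1-SUZ12 cells 2 genes that were nearly silent in mock, EMX1 and TLX1, rose 16.3-fold and 14.6-fold, ALX4 and DLX4 rose 3.14-fold and 2.3-fold, and DLX1 fell to 0.573 of its mock level. Of the 48 members, 17 had enough counts to be tested (edgeR's filterByExpr), 21 had counts but too few, and 10 had 0 counts in all 4 libraries. Of the 17, 6 were higher and 3 lower at a Benjamini-Hochberg adjusted p under 0.05 by edgeR's quasi-likelihood test, and 8 were not called. The background over the 14750 genes tested was 13.3% higher and 11.4% lower. All 6 higher calls and none of the lower ones were at least 2-fold, which held for 5.55% and 0.122% of the 14750. EMX1, EN2 and PITX3 passed the filter only through the JAZF1-SUZ12 libraries, where they are high, so the count of 6 is a description. Among the 14 members that averaged 50 counts or more, 4 were higher (28.6%) and 3 lower (21.4%), against 12.7% and 14.2% of all genes tested at that depth. EMX1, TLX1 and NKX3-2, the last not called, reached that average only through the JAZF1-SUZ12 libraries, so these shares too are a description. The median log2 fold change of the 17 was -0.073, beside 0.0032 for all genes tested.

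EMX1, a factor of cerebral cortex development, lies on GRCh38 chromosome 2 from 72916260 to 72936071 on the plus strand. Its counts were 134 and 183 with the fusion and 12 and 7 in mock. These are 7.76 and 7.49 CPM against 0.587 and 0.329 CPM, and the groups lie far apart. EMX1 overlaps AC012366.1, an antisense gene that was not counted. Whether strand was used in counting is not given, so the level of EMX1 is less certain. The log2 fold change was 4.03 ± 0.31 (SE; edgeR, adjusted p = 1.36e-07), and EMX2, its paralogue, had 7 and 0 counts against 0 and 2.

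TLX1 (chromosome 10, 101130505 to 101137789, plus strand), known from spleen development and as a T cell leukaemia oncogene, had 131 and 184 counts against 10 and 11. Both JAZF1-SUZ12 libraries were at 7.53 to 7.59 CPM and both mock libraries at 0.489 to 0.517 CPM, so replicates differed by far less than the groups. Its log2 fold change was 3.87 ± 0.29 (SE; edgeR, adjusted p = 9.75e-08). Per kilobase, EMX1 and TLX1 reached 2.63 and 2.60 CPM per kb in JAZF1-SUZ12 libraries, which lies within the range of members already transcribed in mock cells, such as EN1. The relatives TLX2 and TLX3 had at most 1 count in any library. TLX1 overlaps TLX1NB on the opposite strand, which was not counted, so the level of TLX1 is less certain in the same way.

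ALX4, a factor of skull and limb development (chromosome 11, 44260440 to 44310166, minus strand), had 148 and 187 counts in JAZF1-SUZ12 libraries and 50 and 56 in mock. It was at 8.57 and 7.66 CPM against 2.45 and 2.63 CPM, with no overlap. The log2 fold change was 1.65 ± 0.21 (SE; edgeR, adjusted p = 2.95e-05). ALX1 had 1 count in 1 mock library and 0 in the others.

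DLX4 (chromosome 17, 49968970 to 49974959, plus strand), a distal-less gene, had 123 and 177 counts against 70 and 58. It was at 7.13 and 7.25 CPM in JAZF1-SUZ12 libraries and 3.42 and 2.72 CPM in mock, a log2 fold change of 1.20 ± 0.21 (SE; edgeR, adjusted p = 0.000574). DLX3, which lies 15.0 kb away and is transcribed towards it, had 2 and 9 counts with the fusion and none in mock. The 2 counts of DLX3 in library 1 lie under the 3 counts that a count of 0 allows, and without the filter DLX3 did not pass (edgeR, adjusted p = 0.109).

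DLX1 moved the other way. DLX1 (chromosome 2, 172084740 to 172089677, plus strand), which with DLX2 acts in forebrain interneurons and the face, had 167 and 315 counts in JAZF1-SUZ12 libraries and 377 and 442 in mock. It was at 9.68 and 12.9 CPM against 18.4 and 20.8 CPM, so that both JAZF1-SUZ12 libraries were below both mock libraries. The log2 fold change was -0.80 ± 0.13 (SE; edgeR, adjusted p = 0.000376). DLX2 lies 9.76 kb beyond DLX1 on the opposite strand and was at 4.0 and 4.05 CPM against 5.38 and 6.39 CPM, also without overlap. Its log2 fold change of -0.57 ± 0.21 (SE) did not pass (edgeR, adjusted p = 0.0555), and passed narrowly without the filter on low counts, with the replicate number as a block and without mock replicate 1 (adjusted p = 0.0392, 0.0454 and 0.0463). Among the DLX genes, then, DLX1 fell, DLX4 rose, DLX5 was at 0 in every library and DLX6 had 5 counts in 1 JAZF1-SUZ12 library.

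The calls of EMX1, TLX1, ALX4, DLX4 and DLX1 held in all 11 other fits, which were 7 other tests, scalings, filters or designs and 4 that each left out a library. Their log2 fold changes over the fits that left out a library were 3.65 to 4.48, 3.82 to 3.90, 1.55 to 1.74, 1.04 to 1.37 and -1.03 to -0.64. In those fits 1 group has a lone library, which is assumed to vary like the others. In the authors' deposited table, which concerns the same libraries, these 5 were the members called, 4 higher and 1 lower of 21 with an adjusted p, where 4.93% and 3.57% of 15895 genes were called higher and lower. The log2 fold changes in the authors' deposited table were 4.03 for EMX1, 3.41 for TLX1, 1.64 for ALX4, 1.22 for DLX4 and -0.73 for DLX1. That table gives JAZF1 a log2 fold change of 6.82, against 5.05 from the deposited counts. Whether it rests on other counts than those deposited was not tested. Among members not called, LBX2 and HLX have the opposite sign there, at -0.36 and 0.086 in the authors' deposited table against 0.17 and -0.077 here.

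**Figure D2:**
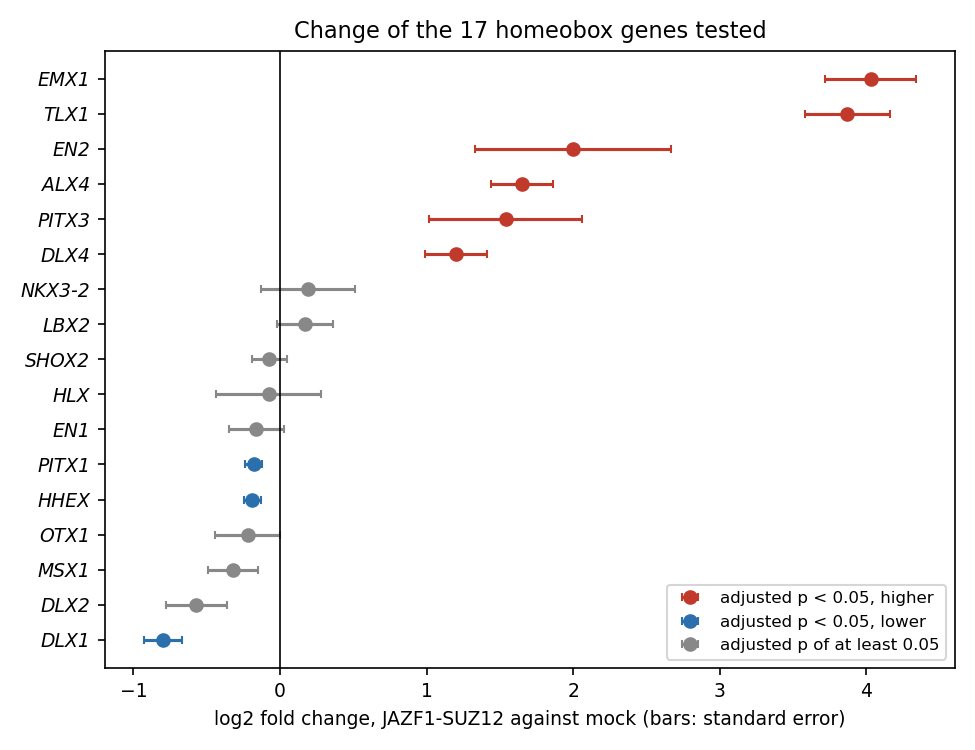
Change (log2 fold, JAZF1-SUZ12 over mock) of the 17 homeobox genes tested by edgeR, with bars of 1 standard error; red and blue mark genes called higher and lower and grey those not called. EMX1 and TLX1 stand at 4.03 and 3.87, and the 3 genes called lower lie between -0.80 and -0.18.

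The other 4 calls depended on the test. EN2, a midbrain and hindbrain factor (chromosome 7, 155458129 to 155464831), had 14 and 19 counts against 3 and 5, or 0.811 and 0.778 CPM against 0.147 and 0.235 CPM. Its log2 fold change was 2.0 ± 0.67 (SE; edgeR, adjusted p = 0.0402). With DESeq2 the adjusted p was 0.162, and it lay between 0.128 and 0.242 when any 1 of the 4 libraries was left out. EN1, which acts beside EN2 in the midbrain, was at 5.0 to 6.16 CPM in all 4 libraries with overlap between groups (log2 fold change -0.16, standard error 0.19; edgeR, adjusted p = 0.609).

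PITX3, a factor of dopaminergic neurons and the lens (chromosome 10, 102230186 to 102241474), had 36 and 27 counts against 9 and 13. At 2.09 and 1.11 CPM, its JAZF1-SUZ12 libraries differed from each other by more than the lower one differed from mock, at 0.440 and 0.610 CPM. The log2 fold change was 1.54 ± 0.52 (SE; edgeR, adjusted p = 0.0383). It did not pass with DESeq2 or limma-voom (adjusted p = 0.104 and 0.0648), nor without JAZF1-SUZ12 replicate 1, where the log2 fold change was 1.02, mock replicate 1 or mock replicate 2 (edgeR, adjusted p = 0.378, 0.168 and 0.0691).

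PITX1 and HHEX, the abundant members, were called lower by small steps. PITX1 (chromosome 5, 135027735 to 135034813) was at 117 and 107 CPM against 125 and 124 CPM, a log2 fold change of -0.18 ± 0.057 (SE; edgeR, adjusted p = 0.0293). HHEX (chromosome 10, 92689951 to 92695646), needed for early blood progenitors and liver, was at 75.5 and 73.0 CPM against 81.9 and 84.5 CPM, a log2 fold change of -0.19 ± 0.058 (SE; edgeR, adjusted p = 0.0283). In both genes the groups did not overlap. Neither passed with DESeq2 (adjusted p = 0.0623 for PITX1 and 0.0961 for HHEX). PITX1 overlaps C5orf66 and AC008406.3 on the opposite strand, which were not counted, so its level is less certain. PITX1 also did not pass without JAZF1-SUZ12 replicate 2 or mock replicate 1 (adjusted p = 0.307 and 0.0736), nor HHEX without JAZF1-SUZ12 replicate 2 or mock replicate 2 (adjusted p = 0.192 and 0.109).

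The 7 remaining members tested were not called and had log2 fold changes between -0.32 and 0.19, with standard errors from 0.12 to 0.36. MSX1, which acts in tooth and palate, was at 6.37 and 6.84 CPM against 8.71 and 7.61 CPM, with both JAZF1-SUZ12 libraries lower (edgeR, adjusted p = 0.175). SHOX2, a limb and sinoatrial node factor, was at 13.4 and 15.8 CPM against 15.3 and 15.1 CPM. It overlaps RSRC1 on the opposite strand, so its level is less certain. Whether strand was used in counting is not given in the sources used here. HLX and LBX2 likewise overlap opposite-strand transcripts, which were not counted. OTX1, a forebrain factor, LBX2 and NKX3-2, a skeletal factor, overlapped between groups, with log2 fold changes of -0.22, 0.17 and 0.19. HLX, the other member known from blood cells, was at 1.80 and 2.01 CPM against 1.42 and 2.54 CPM, a log2 fold change of -0.077 ± 0.36 (SE). Standard errors of this size leave a moderate change in HLX or NKX3-2 undetectable at this depth. Counting all 17, groups did not overlap with JAZF1-SUZ12 higher in 6 and lower in 5, where 33.8% and 27.2% of all genes tested did so.

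Below the filter, the members had at most 17 counts in a library. Of the 21 with any count, 10 had 0 in both mock libraries and at least 1 in a JAZF1-SUZ12 library, and 2, TLX2 and ALX1, the reverse with 1 count each. These are 47.6% and 9.52% of the 21, beside 21.7% and 9.85% of the 3818 protein-coding genes with a count that were not tested. The groups did not overlap with JAZF1-SUZ12 higher in 8 of the 21 (38.1%) and lower in 1 (4.76%), beside 25.3% and 8.17% of those genes. The 10 were LBX1, DLX3, NKX2-1, DLX6, UNCX, NKX2-3, BARX1, NKX6-2, PRRX1 and VAX1. JAZF1-SUZ12 library 2, the deepest, held a count for all 10, and library 1, the shallowest of the 4, for 6 of them. The part that depth plays in these counts was not tested.

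LBX1, a factor of migrating limb muscle precursors and the dorsal spinal cord, had 14 and 5 counts with the fusion and 0 in both mock libraries. At 0.811 and 0.205 CPM, its JAZF1-SUZ12 libraries differed widely from each other. PRRX2, a limb mesenchyme factor, had 8 and 17 counts against 2 and 0, a ratio of 12.5 (95% exact interval 3.12 to 109, counting error only). Without the filter both passed edgeR's test (adjusted p = 0.00975 for LBX1 and 0.0220 for PRRX2). In that fit 9.17% of 22778 genes were higher and 8.68% lower, and EN2 did not pass. That fit gave EMX1 and TLX1 far smaller adjusted p-values than with the filter (edgeR, 1.61e-37 and 6.86e-36 against 1.36e-07 and 9.75e-08). In the authors' deposited table neither LBX1 nor PRRX2 was called. Both overlap opposite-strand transcripts that were not counted, which makes their counts less certain. BARHL2 had 7 and 13 counts against 1 and 4, and CRX, the photoreceptor factor, 4 and 13 against 2 and 5. NKX2-1, the thyroid and lung factor, had 1 and 6 counts against 0 and overlaps another counted gene. The other genes of the 10, DLX3 aside, had at most 5. BARX2 had 0 and 7 counts against 0 and 2, a ratio of 3.5 (95% exact interval 0.667 to 34.6, counting error only). EMX2 had the same ratio and interval. VAX2 had 0 and 4 counts against 1 and 1, a ratio of 2 (0.287 to 22.1). NKX6-2 and VAX2 also overlap other counted genes, which makes their few counts less certain. NKX2-2 had 3 and 4 counts against 9 and 3, VSX1 had 0 and 2 against 7 and 2, and OTP had 0 and 3 against 6 and 2. In all of these the excess in mock was in library 1, and in NKX2-2 and OTP the groups overlapped. Of all protein-coding genes listed, 11.3% had no count in any library. The 10 members without one were DLX5, MSX2, NKX2-5, NKX6-1, TLX3, BARHL1, GSC, OTX2, PHOX2A and RAX. A count of 0 allows up to 3 counts in a library of 17260936 to 24423028.

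**Figure D3:**
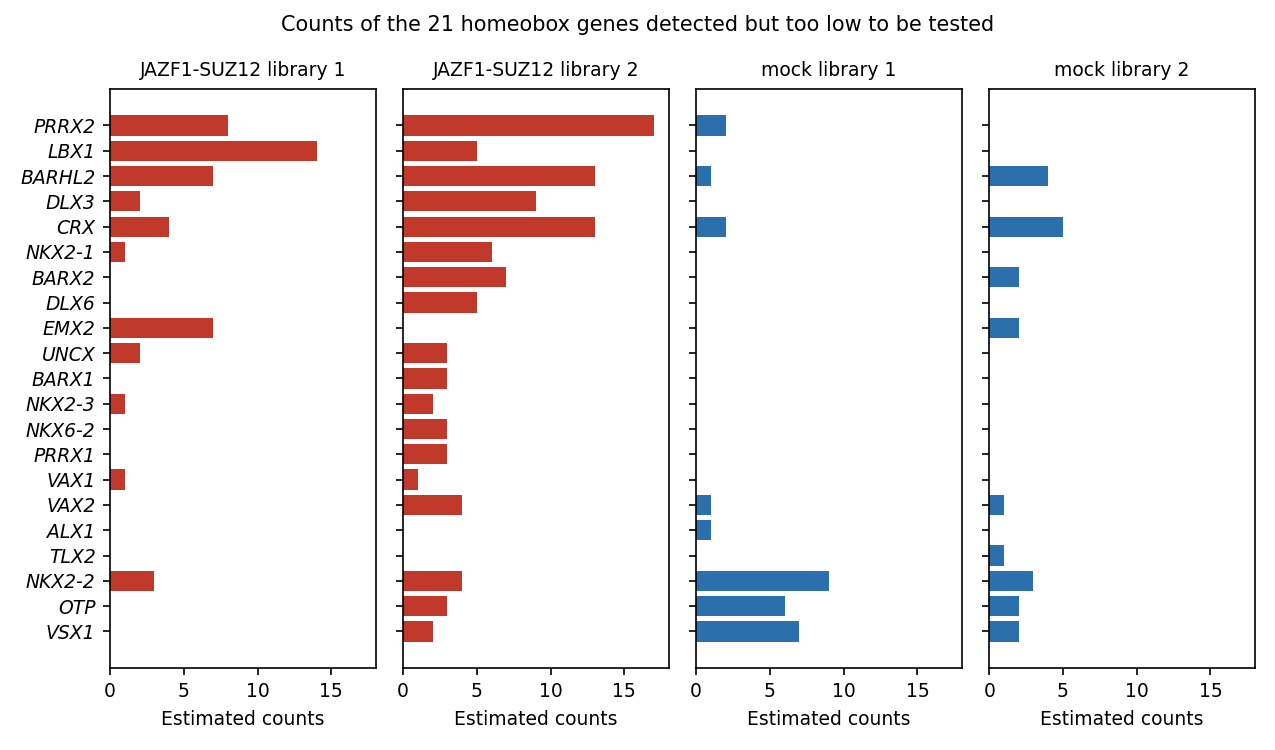
Estimated counts in each library of the 21 homeobox genes that were detected but not tested, with 1 panel per library (red JAZF1-SUZ12, blue mock). Genes are ordered by the difference between groups; LBX1 has 14 and 5 counts in JAZF1-SUZ12 and 0 in mock libraries.

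Position was examined next, since several members lie close together. TLX1 and LBX1 are 88.4 kb apart on chromosome 10 with no coding gene of the table between them, and both had more counts in JAZF1-SUZ12 libraries. PITX3 lies 1092 kb from TLX1, and of the 13 tested genes between them 1 was called higher and 3 lower. Within 500 kb of the start of EMX1, 2 of 9 other tested genes were higher and 2 lower, and all lay between -0.5 and 0.6 in log2 fold change, including SPR, the nearest, at 0.091. Around TLX1, 2 of 11 were higher and 3 lower, with SFXN3 at 1.03.

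Around DLX4, 6 of 17 tested genes were higher and 2 lower. The 6 include ITGA3, an integrin, at 2.28, SAMD14 at 2.23, NGFR at 1.92 and COL1A1, whose start is 232.7 kb beyond that of DLX4, at 1.86. COL1A1 is also a stromal marker and rose from 5.79 ± 0.849 to 21.4 ± 0.0731 CPM (SD, n = 2 each). Around ALX4, 3 of 7 were higher and none lower, among them TSPAN18 at 3.25 and C11orf96 at 1.67. Around PITX3, 0 of 21 were higher and 5 lower, around PITX1 1 of 9 was higher and 3 lower, and around DLX1 1 of 7 was higher and 2 lower. Around HHEX and EN2, 1 of 6 and 1 of 3 were higher and none lower. These neighbourhood counts are descriptions, to be read beside the background of 13.3% and 11.4%.

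**Figure D4:**
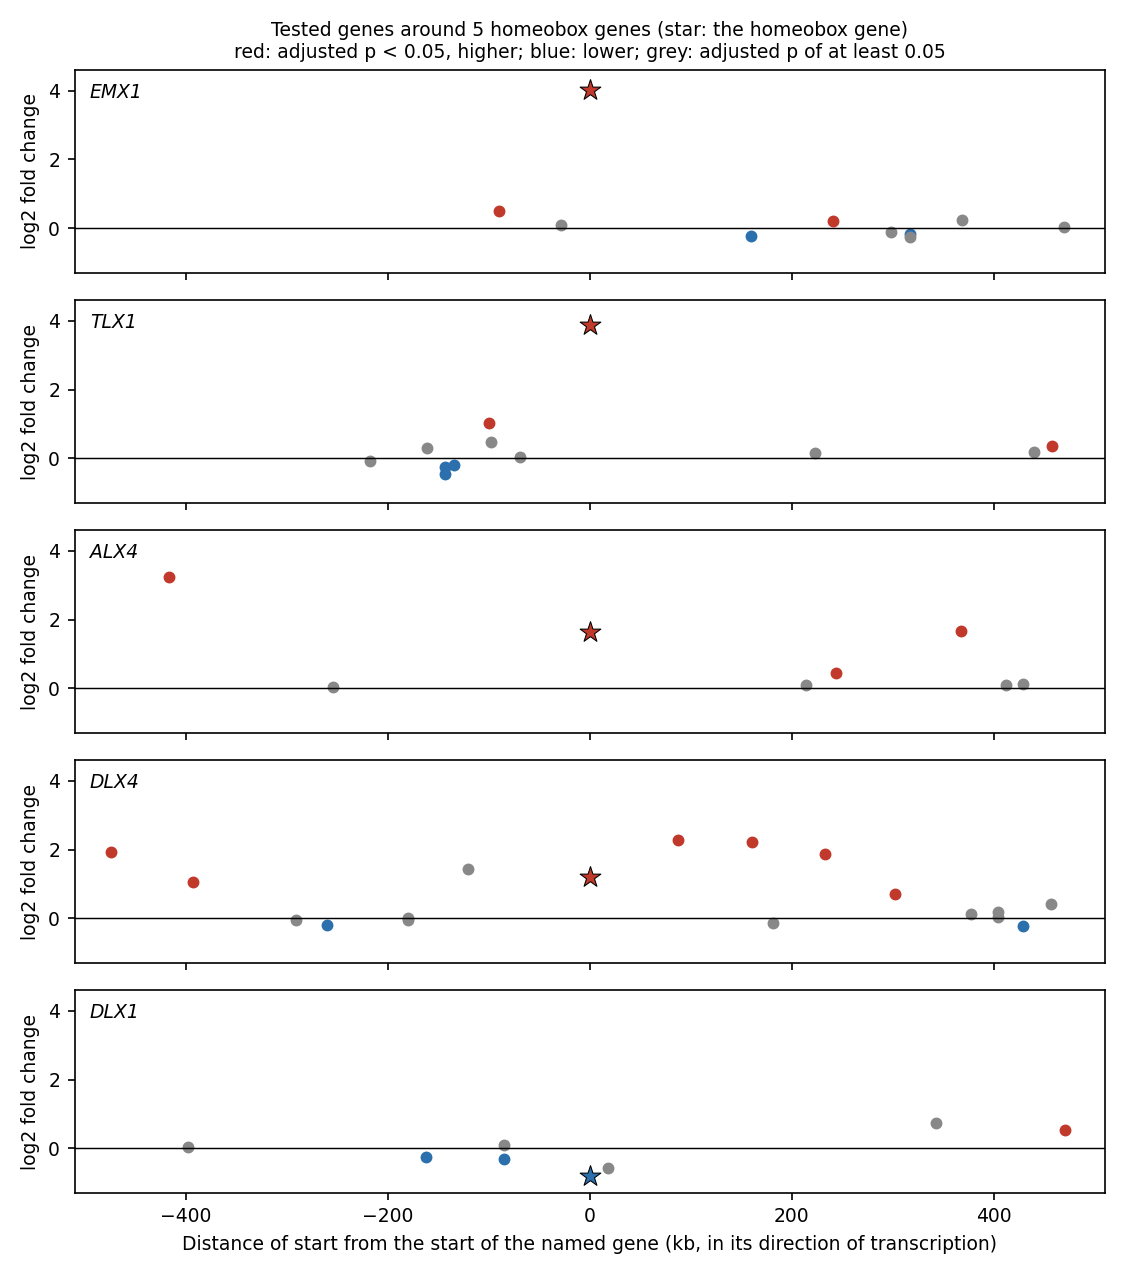
Log2 fold change of the tested genes whose start lies within 500 kb of EMX1, TLX1, ALX4, DLX4 and DLX1, against distance in the direction of transcription; stars mark the named gene, and red, blue and grey mark genes called higher, lower and not called. EMX1 and TLX1 stand above all their neighbours, whereas DLX4 at 1.20 has 6 neighbours called higher.

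Other genes of the same classes and proteins that work with homeodomains were examined beside the members. Of 41 other NKL and PRD genes, 12 were tested, 3 were higher and 1 lower, with a median log2 fold change of 0.11. Beside these counts, 13.3% of all genes tested were higher and 11.4% lower. DMBX1, a PRD class gene of the midbrain, rose from 17.5 and 18.5 CPM in mock to 36.9 and 36.1 CPM, a log2 fold change of 1.0 ± 0.084 (SE; edgeR, adjusted p = 4.27e-07). RHOXF2, which has a near-identical copy and is uncertain for that reason, was called lower with a log2 fold change of -0.17 ± 0.052 (SE; edgeR, adjusted p = 0.0207), but not without JAZF1-SUZ12 replicate 2 (0.119) or mock replicate 2 (0.109).

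PBX, MEIS and PKNOX proteins are TALE homeodomain proteins that bind DNA together with other homeodomains, and TLE proteins are co-repressors that EN, MSX, TLX and related factors recruit. Of 14 genes, 13 were tested, 4 rose and 1 fell, and their median log2 fold change was 0.06. The background over all genes tested was 13.3% higher and 11.4% lower, and the list itself was not tested. MEIS3 rose from 3.33 and 3.38 CPM to 12.9 and 14.6 CPM, a log2 fold change of 2.01 ± 0.17 (SE; edgeR, adjusted p = 3.09e-07). PBX3 rose from 1.91 and 2.16 CPM to 5.91 and 5.40 CPM, a log2 fold change of 1.45 ± 0.24 (SE; edgeR, adjusted p = 0.000415). TLE2 rose from 27.3 and 29.9 CPM to 43.0 and 44.7 CPM (log2 fold change 0.60; edgeR, adjusted p = 3.04e-05), while TLE3 and TLE5 had log2 fold changes of -0.038 and 0.026 and were not called (adjusted p = 0.730 and 0.721). MEIS2 was called lower by 0.21 on the log2 scale (edgeR, adjusted p = 0.0332), and did not pass with DESeq2 (0.158), with total counts only (0.0569), over genes with a mean of at least 50 counts (0.0509), or without JAZF1-SUZ12 replicate 2 or mock replicate 2 (0.175 and 0.156).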

How the data were processed

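RNA of K562 cells was sequenced after poly(A) selection with a directional kit, per the labels' protocols. The submitters' processing notes name hg38, fastp 0.20.1, FastQC 0.11.7, MultiQC 1.5, kallisto 0.46.2 and DESeq2 1.30.1 without saying what each was used for. The annotation and the strand setting are not given in the sources used here. The authors deposited estimated counts per gene, not normalized, of which 33.9% to 37.4% per library are not whole. The authors also deposited a comparison of the groups with a mean signal of normalized counts, a log2 fold change with its standard error, a score (their ratio) and p-values before and after adjustment, per the file headers.

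Estimated counts were rounded, filtered with filterByExpr by group (at least 10 counts at the median depth, 0.479 CPM), scaled with TMM and compared with edgeR 4.0.16 (quasi-likelihood, R 4.3.3), two-sided, in a model of group alone. The design had assumed counts without saying whether they were whole. Benjamini-Hochberg adjustment ran over the 14750 genes tested. Standard errors (SE) were derived as |log2 fold change| over the root of F. CPM are rounded counts per 1000000 counts of the library. Positions and transcript lengths are from GENCODE 29 (GRCh38), not necessarily the authors' annotation, and promoter windows from RefSeq. The script was tested on simulated data. Alternatives were DESeq2 1.42.0, limma-voom (limma 3.58.1), other scalings and filters, stricter thresholds, the replicate number as a block, and leaving out each library. No molecular identifiers are stated, so intervals and floors reflect counting error alone.

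All 48 members are accounted for. Beside them, up to 5 called genes per direction were named from lists of other NKL and PRD genes and of partner proteins, of which some are not reported here; none of 15 antisense or divergent transcripts beside members matched the table by symbol, and they are not analysed here. Of 7 epithelial markers, KRT19 was higher and EPCAM lower of 2 tested. The members, lists and tests were chosen with earlier results of these data known.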

Additional observations from a re-analysis of the deposited data

How the results depend on the processing

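The 6 members called higher numbered 4 by DESeq2, 4 at a threshold of 0.01, 4 over genes with a mean of at least 50 counts, 7 without a filter and between 4 and 5 when a library was left out. The 3 called lower numbered 1 by DESeq2, 1 at 0.01, 0 when a 2-fold change was also required and between 1 and 3 when a library was left out (1 without JAZF1-SUZ12 replicate 2). The 3 other NKL and PRD genes called higher became 1 at 0.01, 1 at a mean of at least 50 counts and between 1 and 3 without a library (1 without JAZF1-SUZ12 replicate 2). The 1 called lower became 0 at 0.01, 0 with the 2-fold requirement and between 0 and 1 without a library. Over all genes, 1955 called higher became 1255 at 0.01 and 819 with the 2-fold requirement. The 1688 called lower numbered 1051 by DESeq2, 790 at 0.01, 18 with the 2-fold requirement and between 1070 and 1941 without a library, the lowest without JAZF1-SUZ12 replicate 2. A stricter threshold or an added fold requirement reduces a count by construction. For DESeq2, the other filters and the libraries left out, the cause was not tested.

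With the replicate number as a block, 5 members were higher and 4 lower, and 2074 and 1987 of all genes. It ended the call of EN2 (adjusted p = 0.0522), added DLX2 and changed no other call of a member. Deviations of same-numbered libraries had a correlation of -0.00072 over genes tested, so the numbers were not taken as pairs. No called member changed direction. Members not called did when a library was left out: log2 fold changes ranged from -0.11 to 0.56 for NKX3-2, -0.44 to 0.39 for HLX, -0.019 to 0.35 for LBX2, -0.44 to 0.023 for OTX1 and -0.19 to 0.019 for SHOX2.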
